A study of Homo sapiens with 24 samples.

Results

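Expression was examined for 10 genes that encode histone lysine demethylases of the oxygen-dependent class: KDM2A, KDM2B, KDM3A, KDM3B, KDM4A, KDM4B, KDM4C, KDM5A, KDM5B and KDM6B. They were taken by gene name from both tables of raw counts, which list 58735 genes, and all 10 had enough counts to be among the 19952 genes tested. The RNA came from HEK293T, a human embryonic kidney line that carries the SV40 large T antigen. Unedited cells (WT), cells without MIR210 (MIR210-KO), which encodes the microRNA miR-210, and cells without its long non-coding host gene MIR210HG (MIR210HG-KO) were each kept for 24 h at 21% oxygen (normoxia) or at 1% oxygen (hypoxia). Each of the 6 combinations was sequenced as 4 libraries, 24 in all. All cells grew in high-glucose medium with serum. Whether each knockout is 1 clone or a pool of cells is not given in the sources used here. Nor is it given whether the 4 libraries of a group are separate cultures, so p-values measure only the spread between these libraries, which may be technical.

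These enzymes share the JmjC fold, which holds an iron ion and uses 2-oxoglutarate and molecular oxygen to oxidise a methyl group on a lysine, after which the group leaves as formaldehyde. Oxygen is therefore a substrate of the reaction, and a fall in oxygen can reduce the activity of some members while the transcription of others is raised by hypoxia-inducible factor (HIF), the main transcription factor of the oxygen response. KDM3A is a long-known HIF target. The members differ in their substrate: KDM3A and KDM3B act on lower methylation states of lysine 9 of histone H3, KDM4A, KDM4B and KDM4C on trimethylated lysine 9 and lysine 36, KDM5A and KDM5B on methylated lysine 4, KDM6B on methylated lysine 27, and KDM2A and KDM2B on lysine 36. Transcript levels, not enzyme activity or histone marks, were measured here.

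Libraries held 25556776 to 37858947 counts. MIR210HG, the check of the labels, had 0 counts in all 8 MIR210HG-KO libraries, 5.70 ± 0.65 CPM in normoxia WT and 19.1 ± 1.72 CPM in hypoxia WT (SD, n = 4). CPM are read counts relative to the library total, scaled by TMM factors. In MIR210-KO cells MIR210HG stood at 3.48 ± 1.07 and 20.7 ± 1.46 CPM, and the small miR-210 itself was not measured. Of 11 further HIF targets 10 were tested, and all 10 were higher in hypoxia in each genotype, with medians of 1.72 in WT, 1.55 in MIR210-KO and 1.65 in MIR210HG-KO on the log2 scale. The summed level of 8 marker genes of HEK293T cells was 523 to 1095 CPM in WT, 876 to 1200.4 CPM in MIR210-KO and 341 to 446 CPM in MIR210HG-KO, and their part in the genotype differences was not tested. Blood (4 genes) and endothelial (3 genes) markers summed to at most 1.54 and 0.300 CPM, and 3 fibroblast markers to 24.4 to 44.2 CPM. The mitochondrial share of counts was 3.18 to 3.95% in normoxia and 1.93 to 2.96% in hypoxia. Hypoxia WT libraries 1 and 3 stood apart from 2 and 4 in the balance of long and short genes, the mean log2 CPM of genes of at least 8000 bases minus that of genes of at most 1500 bases, set to average 0 over the 24 libraries: -0.049 and -0.077 against 0.081 and 0.067. Each oxygen level has its own count table, so oxygen level and table cannot be told apart. Scaling factors were lower in normoxia (0.923 to 0.957) than in hypoxia (1.00 to 1.08). With library totals alone in their place, the median of all genes in hypoxia minus normoxia moved to 0.13 in WT, 0.23 in MIR210-KO and 0.21 in MIR210HG-KO, so each oxygen difference is relative to the scaling.

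Per unit of length, KDM3B was the most abundant member in normoxia and KDM4C the least. In normoxia WT, KDM3B had 76.3 ± 1.56 TPM (transcripts relative to gene length and library total, mean ± SD, n = 4), followed by KDM2A at 43.5 ± 0.607, KDM4A at 37.8 ± 1.71 and KDM6B at 34.3 ± 2.15 TPM. KDM2B and KDM5A followed at 28.8 ± 0.971 and 28.0 ± 1.74 TPM. The lower end held KDM4B at 21.4 ± 0.564, KDM5B at 17.9 ± 0.389, KDM3A at 16.8 ± 1.34 and KDM4C at 9.56 ± 0.757 TPM. Of these neighbours in the order, KDM4A and KDM6B, KDM2B and KDM5A, and KDM5B and KDM3A overlapped between libraries. KDM3B led and KDM4C came last in normoxia in both knockouts too. The gene length used is the deposited one, which equals all exon bases of a gene in GENCODE release 29, not a transcript's length. It runs from 5172 bases for KDM4A to 25882 for KDM5B and weighs on the order. By CPM, KDM5B had 130 ± 3.07 in normoxia WT, beside KDM2A at 127 ± 1.08.

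The order changed at 1% oxygen. In hypoxia WT, KDM6B came first with 93.4 ± 10.8 TPM, although its libraries overlapped those of KDM3B, the next, at 81.0 ± 11.5 TPM, and KDM3A moved from the ninth place to the third with 64.0 ± 6.97 TPM, overlapping KDM3B in turn. In hypoxia MIR210-KO the order was led by KDM3B at 83.1 ± 5.52, with KDM3A at 48.0 ± 3.15 and KDM6B at 38.5 ± 3.241 TPM. In hypoxia MIR210HG-KO, KDM3B had 108 ± 0.975 and KDM2A 73.1 ± 1.83 TPM, ahead of KDM3A at 64.9 ± 2.25 TPM, while KDM6B was in the fifth place at 49.2 ± 4.76 TPM. KDM4C stayed last in all 6 groups, between 7.22 and 18.1 TPM. TPM serve only to order genes within a group. Differences between groups are on the CPM scale.

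**Figure D1:**
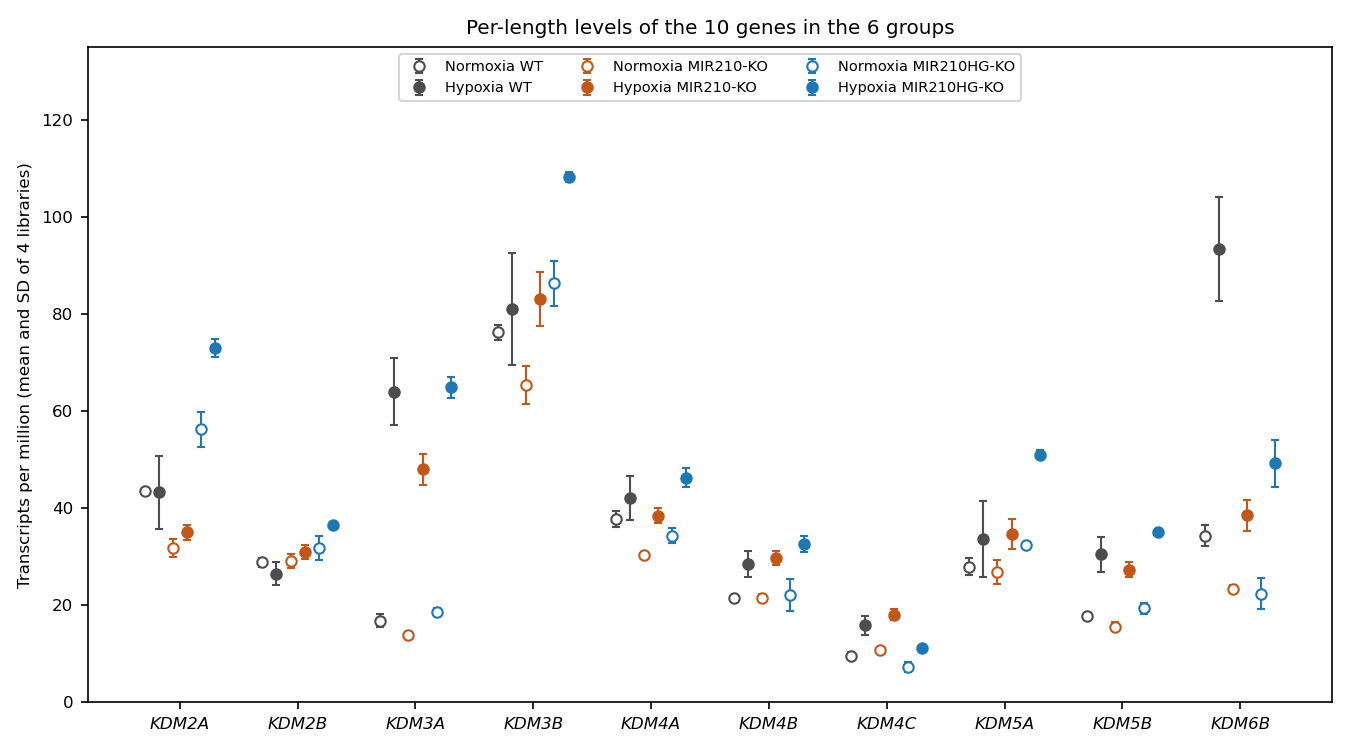
Mean TPM (vertical axis, bars are SD over 4 libraries) of the 10 genes in the 6 groups, open symbols for 21% and filled symbols for 1% oxygen. Within hypoxia WT, KDM6B has the highest mean of the 10 genes, at 93.4 TPM, with libraries that overlap those of KDM3B. KDM4C is the lowest gene within each group. Heights are not compared between groups.

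What 1% oxygen did to these genes was asked first in WT cells. Of the 10 members, 5 rose, 3 fell and 2 did not pass the test (edgeR quasi-likelihood F test, two-sided, Benjamini-Hochberg adjusted p under 0.05 over all genes), beside 60.3% of all tested genes called in that comparison. Their median log2 fold change was 0.11, against 0.0020 for all genes. In MIR210-KO 4 rose and 2 fell, beside 58.7% of all genes called, and in MIR210HG-KO 6 rose and 1 fell, beside 54.1%. With so many genes called in all, these counts are not read as particular to the members. In size, KDM3A and KDM6B rose most in WT, followed by KDM5B and KDM4C. With library totals alone the split was 5 higher and 1 lower in WT, 8 and 0 in MIR210-KO, and 9 and 0 in MIR210HG-KO. Of all 19952 genes, 12224, 12333 and 11543 were called under that setting, and the medians of all genes rose as given above. The falls of KDM2A and KDM3B in WT, and of KDM2A and KDM2B in the knockouts, thus depend on the scaling.

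**Figure D2:**
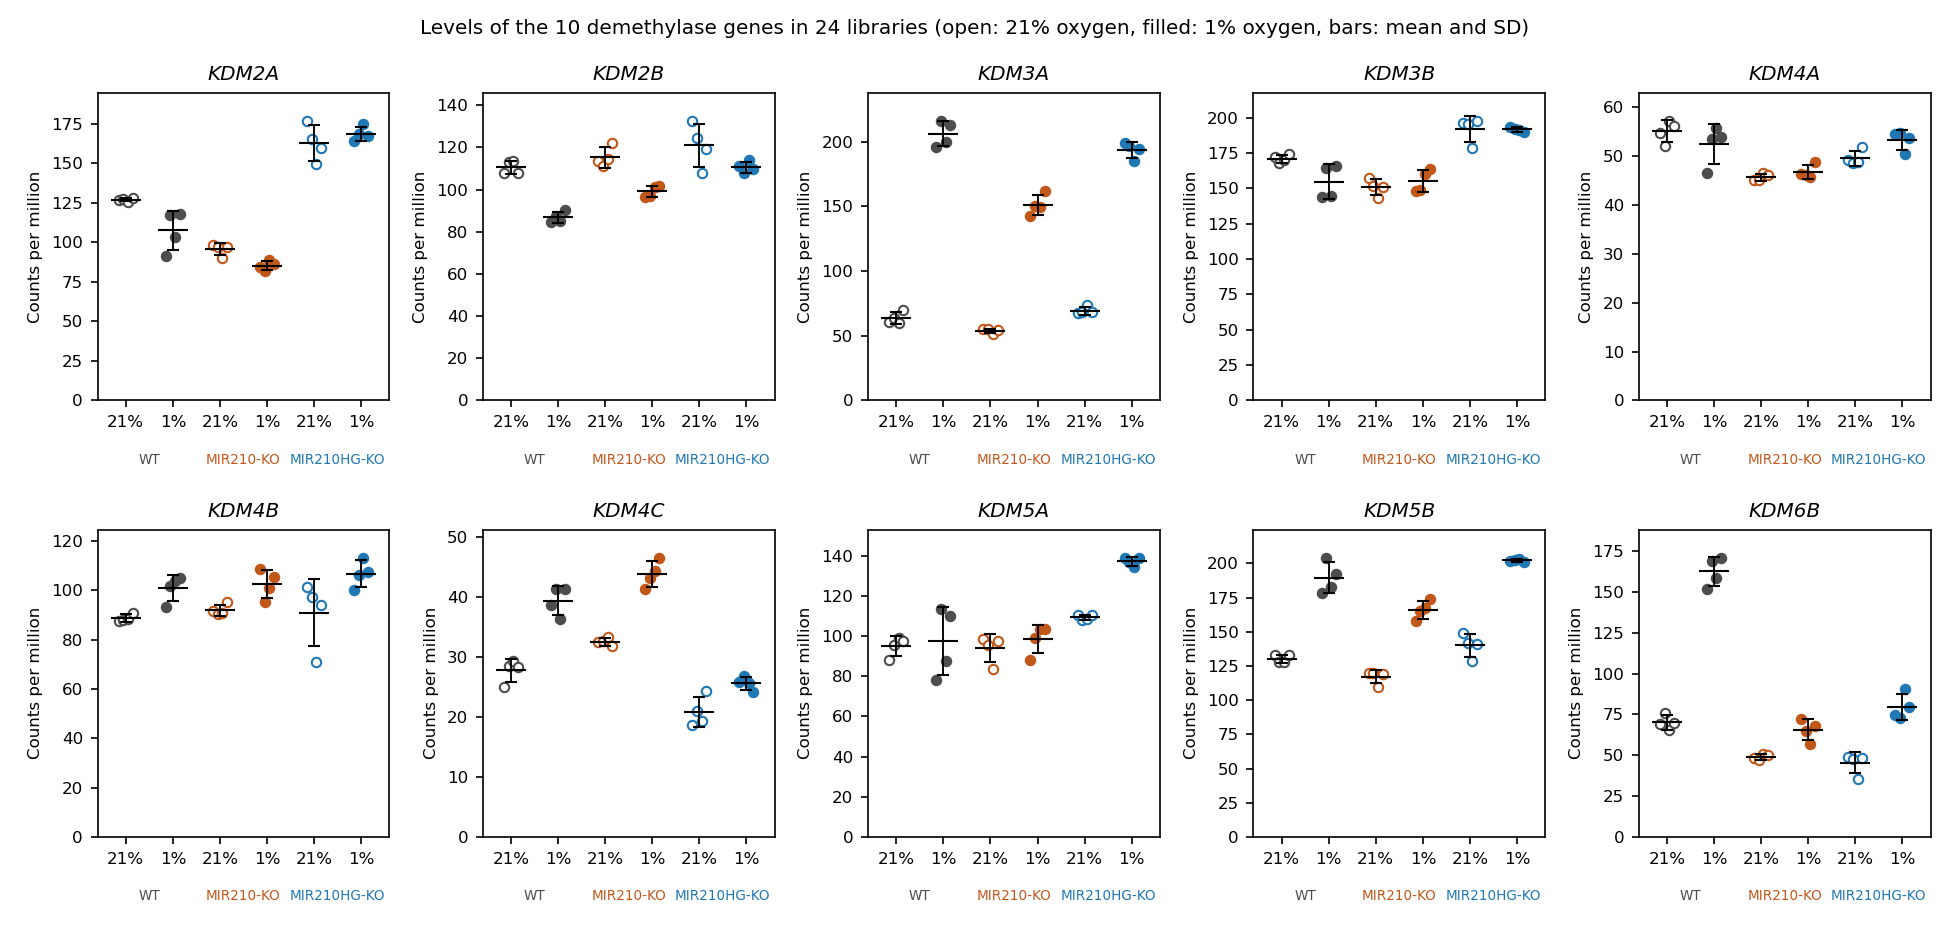
CPM (vertical axis, from 0) of each gene in every library, grouped by genotype and oxygen, with the mean and SD of 4 libraries. KDM3A is separated by oxygen level in every genotype, whereas KDM6B in hypoxia WT lies above all other libraries, at 152 to 171 CPM.

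KDM3A (chr2:86440647-86492716, plus strand, GRCh38), the lysine 9 demethylase long known as a HIF target, responded most. In normoxia WT its 4 libraries had 60.7, 63.5, 60.1 and 70.3 CPM, and in hypoxia WT 196, 216, 200.04 and 213 CPM. The groups did not overlap. The mean went from 63.6 ± 4.68 CPM to 206 ± 9.74 CPM (SD, n = 4), a log2 rise of 1.70 ± 0.056 (SE, edgeR adjusted p = 1.27e-21), which places it at percentile 97.2 of all tested genes.

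KDM3A rose in both knockouts too. MIR210-KO libraries had 54.9, 54.9, 51.2 and 54.1 CPM in normoxia and 143, 150.3, 149.9 and 162 CPM in hypoxia, a 2.81-fold rise (log2 1.49 ± 0.056). MIR210HG-KO libraries had 67.6, 68.2, 74.1 and 68.2 CPM in normoxia and 199, 197, 185 and 194 CPM in hypoxia, a 2.79-fold rise (log2 1.48 ± 0.056). The response was smaller than that of WT by 0.21 (interaction -0.21 ± 0.078, adjusted p = 0.0472) in MIR210-KO and by 0.22 (interaction -0.22 ± 0.077, adjusted p = 0.0389) in MIR210HG-KO by edgeR's test. Both differences sit close to the threshold: they lost it under 15 and 10 of 29 alternatives, with adjusted p from 0.00712 to 0.843 and from 0.00458 to 0.841, while every alternative kept the negative sign. Leaving out 1 of 11 single libraries ended the first call (normoxia WT 1, 2 or 3, normoxia MIR210-KO 1, 2 or 4, hypoxia WT 2 or 4, or hypoxia MIR210-KO 1, 2 or 3), with values of -0.21 to -0.18. Leaving out 1 of 5 ended the second (normoxia WT 1, 2 or 3, or library 3 of either MIR210HG-KO group), with values of -0.22 to -0.19.

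KDM6B (chr17:7839904-7854796, plus strand), which removes methyl groups from lysine 27 of histone H3 and so opposes Polycomb silencing, had the response that differed most from WT among the members. WT libraries had 69.1, 76.1, 65.7 and 69.6 CPM in normoxia and 152, 169, 158 and 171 CPM in hypoxia, 2.32-fold higher (log2 1.21 ± 0.081, adjusted p = 3.55e-14 by edgeR). MIR210-KO libraries had 48.6, 46.9, 50.8 and 50.3 CPM in normoxia and 72.4, 65.1, 57.2 and 68.1 CPM in hypoxia, only 1.34-fold higher (log2 0.42 ± 0.082, adjusted p = 5.98e-05 by edgeR). MIR210HG-KO libraries had 49.1, 48.0, 35.8 and 48.5 CPM in normoxia and 74.7, 72.9, 90.7 and 79.6 CPM in hypoxia, 1.75-fold higher (log2 0.81 ± 0.083, adjusted p = 7.86e-10 by edgeR). KDM6B thus rose in all 3 genotypes without overlap, yet the hypoxic MIR210-KO libraries overlapped those of normoxic WT.

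The KDM6B response was smaller than in WT by 0.80 in MIR210-KO (interaction -0.80 ± 0.11, adjusted p = 3.51e-06, edgeR) and by 0.40 in MIR210HG-KO (interaction -0.40 ± 0.11, adjusted p = 0.0105, edgeR). The first difference passed under all 29 alternatives, at -0.91 to -0.73. The second passed under 28 of 29 and missed only when a fold of at least 1.2 was demanded. KDM6B and KDM3A were the members with an interaction in MIR210-KO, 2 of 10 beside 26.5% of all genes called. In MIR210HG-KO there were 4 of 10 beside 22.5%, the other two being KDM2A and KDM2B. KDM5A came close there, with a response higher by 0.30 ± 0.11 (edgeR adjusted p = 0.0528), called under 10 of 29 alternatives (adjusted p from 0.00990 to 0.545) and at 0.095 without the 4 libraries that stood apart (adjusted p = 0.367). DESeq2 and limma voom each called 5 members for that interaction, beside 4800 and 4405 of 19952 genes. Between the 2 knockouts no member's response differed by edgeR after adjustment, beside 3.54% of all genes called. At an unadjusted p under 0.05 there were 3 members (KDM2A, KDM5A and KDM6B), with the share of all genes at that cutoff not given here. DESeq2 called 1 member beside 1021 of 19952 genes, and limma voom 0 beside 603. KDM6B came nearest there, with a response 0.39 larger in MIR210HG-KO (edgeR adjusted p = 0.0548, from 0.00540 to 0.789 over the alternatives). Leaving out normoxia MIR210HG-KO 1, hypoxia MIR210-KO 1 or hypoxia MIR210HG-KO 2 brought it under the threshold, with 0.43 to 0.44. The WT libraries enter both knockout interactions, so these are not independent of each other.

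The other HIF targets moved with genotype too. Of the 10 tested, 5 had a smaller response in MIR210-KO than in WT and none a larger one, with a median difference of -0.35, led by ANKRD37 at -1.29 ± 0.20 and VEGFA at -0.69 ± 0.075. In hypoxia 8 were lower and 1 higher in MIR210-KO than in WT, with a median of -0.69. In MIR210HG-KO the response was larger for 4 and smaller for 3, with a median of 0.096, and in hypoxia 4 were higher and 5 lower than in WT, with a median of -0.17. The part of this in the KDM3A and KDM6B differences was not tested.

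**Figure D3:**
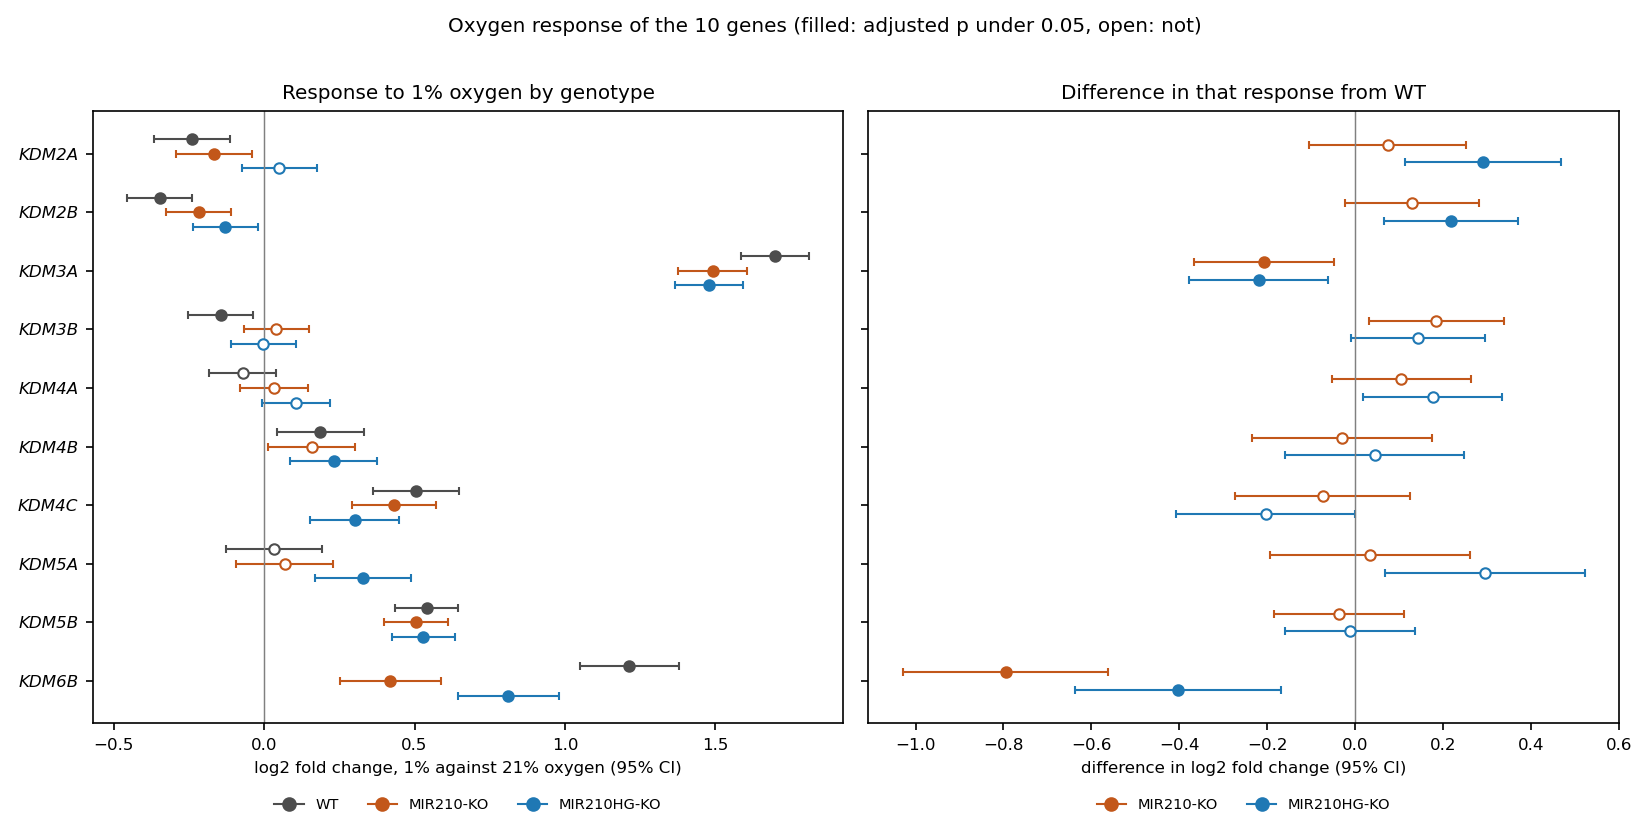
Left, log2 fold change from 21% to 1% oxygen (horizontal axis, with 95% confidence intervals) of each gene in the 3 genotypes; right, the difference of each knockout's response from that of WT. KDM3A and KDM6B lie farthest to the right in WT, and KDM6B is the gene farthest to the left in the difference, at -0.80 and -0.40.

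The lysine 4 demethylases differed from each other. KDM5B (chr1:202724495-202809470, minus strand) rose to about the same degree in each genotype. It went from 133, 128, 128 and 133 CPM to 178, 204, 183 and 192 CPM in WT, with no overlap, a log2 rise of 0.54 ± 0.051 (adjusted p = 1.11e-10, edgeR). The rise was 0.50 ± 0.052 in MIR210-KO, from 117 ± 4.84 CPM to 166 ± 6.73 CPM, and 0.53 ± 0.051 in MIR210HG-KO, from 140.2 ± 8.32 CPM to 202 ± 0.913 CPM. Intervals of the difference from WT ran from -0.18 to 0.11 in MIR210-KO and from -0.16 to 0.14 in MIR210HG-KO. The rise passed under all 21 alternatives in each genotype.

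KDM5A (chr12:280129-389454, minus strand), its paralogue, first found as a partner of the retinoblastoma protein, had values that split by library in hypoxia WT. Hypoxia WT libraries had 78.3, 113, 87.8 and 109.8 CPM, lower in 1 and 3 than in 2 and 4, against 88.1, 95.7, 99.2 and 97.7 CPM in normoxia WT. The groups overlapped and the difference was 0.033 ± 0.079 (95% interval -0.13 to 0.19). Libraries 1 and 3 are those with the low balance of long genes. Leaving both out keeps only hypoxia WT 2 and 4, the pair with the higher KDM5A values. Without the 4 libraries that stood apart (hypoxia WT 1 and 3, hypoxia MIR210-KO 1 and normoxia MIR210HG-KO 3) KDM5A was higher in hypoxia WT by 0.23 (edgeR adjusted p = 1.89e-04, from 1.89e-04 to 1.00 over the alternatives). These 4 libraries were set by name, not by a stated cutoff. Hypoxia MIR210-KO 1 and normoxia MIR210HG-KO 3 had the lowest balance of their groups, at 0.016 and -0.084, the latter beside -0.070 in normoxia MIR210HG-KO 2. In MIR210HG-KO, KDM5A went from 110.5, 108, 108 and 110.3 CPM to 139, 137, 134 and 139 CPM with no overlap, a rise of 0.33 ± 0.078, adjusted p = 6.62e-04 by edgeR. With the balance as a covariate that rise was 0.12 and not called (adjusted p = 0.0843, edgeR). The balance comes from the same counts and did not overlap between these groups. It ran from -0.084 to -0.040 in normoxia MIR210HG-KO and from -0.0022 to 0.030 in hypoxia MIR210HG-KO. The covariate can therefore take up part of an oxygen difference. In MIR210-KO the difference was 0.068 ± 0.079 and not called.

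**Figure D4:**
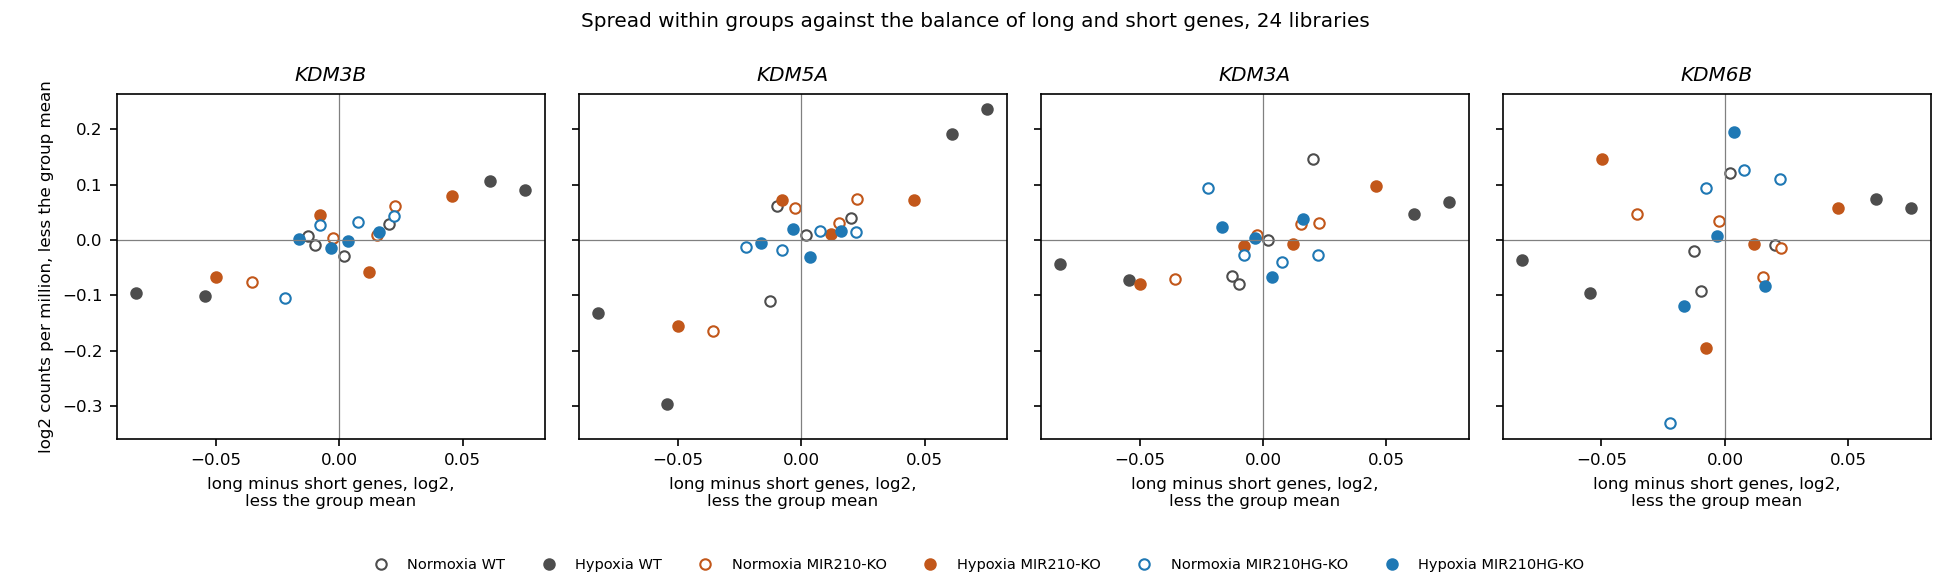
Log2 CPM of 4 genes (vertical axis) against the balance of long and short genes (horizontal axis), each less the mean of its group, for the 24 libraries. For KDM5A, hypoxia WT 1 and 3 (78.3 and 87.8 CPM) lie at the lower left and hypoxia WT 2 and 4 (113 and 109.8 CPM) at the upper right, and for KDM6B normoxia MIR210HG-KO 3 (35.8 CPM) lies lowest.

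In the KDM4 family, which acts on trimethylated lysine 9 and lysine 36, KDM4C rose, KDM4B rose slightly and KDM4A did not pass the test. KDM4C (chr9:6720863-7175648, plus strand) went from 24.9, 28.5, 29.3 and 28.3 CPM in normoxia WT to 38.6, 41.3, 36.3 and 41.3 CPM in hypoxia WT, with no overlap, a log2 rise of 0.50 ± 0.069, adjusted p = 1.78e-07 by edgeR. The rise was 0.43 ± 0.069 in MIR210-KO and 0.30 ± 0.072 in MIR210HG-KO, where 1 normoxic library, at 24.3 CPM, lay above the lowest hypoxic one, at 24.2 CPM. KDM4B (chr19:4969113-5153595, plus strand), induced by hypoxia in other cell types, went from 88.7 ± 1.57 CPM to 101 ± 5.22 CPM in WT (log2 0.19 ± 0.071, adjusted p = 0.0231, edgeR), a call that was lost without normoxia WT 1 (0.18, adjusted p = 0.0509). MIR210HG-KO libraries had 102, 97.4, 71.1 and 93.9 CPM in normoxia, the third far below the rest, and 100.3, 106, 113 and 107 CPM in hypoxia, with an overlap. The rise there was 0.23 ± 0.071 (edgeR adjusted p = 0.00641), and 0.13, still called, without normoxia MIR210HG-KO 3. In MIR210-KO the difference was 0.16 ± 0.071, not called at an edgeR adjusted p of 0.0565, and called under 10 of 21 alternatives (adjusted p from 7.39e-05 to 0.927).

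KDM4A (chr1:43650158-43705515, plus strand) differed by -0.071 ± 0.054 between oxygen levels in WT (95% interval -0.18 to 0.040), by 0.034 ± 0.055 in MIR210-KO and by 0.11 ± 0.055 in MIR210HG-KO, none of them called. Its counts are uncertain, since in GENCODE release 29 another protein-coding gene, AL451062.3, shares 40.2% of its exon bases on the same strand and KDM4A-AS1 shares 8.97% on the opposite strand. Of the other members KDM2B, KDM4C and KDM5A share at most 3.22% of their exon bases with any 1 other gene, and KDM2A, KDM3A, KDM3B, KDM4B, KDM5B and KDM6B share none.

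KDM3B (chr5:138352596-138437028, plus strand), the paralogue of KDM3A, did not follow it. WT libraries had 172, 168, 170.0 and 174 CPM in normoxia and 144, 164, 144 and 166 CPM in hypoxia. The hypoxic values were all lower but fell into a lower pair, 1 and 3, and a higher pair. The difference was -0.14 ± 0.053, adjusted p = 0.0192 by edgeR, but it lost the threshold under 10 of 21 alternatives. Among them was the removal of the 4 libraries that stood apart (edgeR adjusted p = 0.345). Removing hypoxia WT 1 (-0.11, edgeR adjusted p = 0.0850) or 3 (-0.11, edgeR adjusted p = 0.0717) alone also lost it. Over all 21 alternatives the adjusted p, each by that alternative's test, ran from 2.61e-05 to 1.00. In the knockouts the difference was 0.040 ± 0.053 and -0.0021 ± 0.053, not called. With library totals alone these became 0.23 and 0.19 and were called as higher.

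KDM2A and KDM2B, demethylases of lysine 36, both fell in WT. KDM2B (chr12:121429097-121581015, minus strand), which binds unmethylated CpG islands and brings a Polycomb complex there, went from 108, 113, 113 and 108 CPM in normoxia to 84.5, 87.5, 85.4 and 90.2 CPM in hypoxia, with no overlap (log2 -0.35 ± 0.053, adjusted p = 1.08e-06 by edgeR). In WT the fall was called under all 21 alternatives. It was -0.22 ± 0.053 in MIR210-KO and -0.13 ± 0.053 in MIR210HG-KO, where the libraries overlapped. There the call was lost under 14 of 21 alternatives, among them the removal of any 1 library of either group other than normoxia MIR210HG-KO 3 (-0.14 to -0.083), and with upper quartile factors and library totals alone the sign turned (0.0077 and 0.060). KDM2A (chr11:67119269-67258087, plus strand), which binds CpG islands too, had 127, 127, 126 and 128 CPM in normoxia WT and 91.7, 117, 103 and 118 CPM in hypoxia WT (log2 -0.24 ± 0.062, adjusted p = 0.00116 by edgeR). Libraries 1 and 3, those with the low balance of long genes, were the lowest. The difference was -0.11 without the 4 libraries that stood apart (adjusted p = 0.0386), -0.17 without hypoxia WT 1 alone, and -0.32 with the balance as a covariate. In MIR210-KO it was lower (log2 -0.17 ± 0.062), but not called without hypoxia MIR210-KO 2 (-0.15, adjusted p = 0.0690), and the sign turned with library totals alone (0.026). It differed by 0.050 ± 0.061 in MIR210HG-KO, not called.

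The KDM2A and KDM2B responses in MIR210HG-KO were higher than in WT by 0.29 ± 0.087 (edgeR adjusted p = 0.0147) and 0.22 ± 0.075 (edgeR adjusted p = 0.0327). Without the 4 libraries that stood apart neither passed, with adjusted p of 0.160 and 0.134. Over all alternatives p ran from 0.00569 to 0.536 for KDM2A and from 0.00711 to 0.851 for KDM2B. The KDM2B call was lost without any 1 of 9 libraries (normoxia WT 2 or 3, normoxia MIR210HG-KO 3 or 4, hypoxia WT 1 or 2, hypoxia MIR210HG-KO 1, 3 or 4), with values of 0.17 to 0.21.

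Promoters were read for the letters of the core that HIF binds. The core was searched as ACGTG and, in its other form, GCGTG, on both strands, from 250 bases before to 50 after each start that RefSeq lists (GRCh38.p14). All 10 members matched, with 16 starts. Of these starts, 13 held at least 1 match, against 48.4% of all 35116 promoters in the table. The KDM3A windows overlap, so its 1 match is counted at both of its starts. Member windows held 53 to 84% G and C, and the promoters compared were not matched for this. By member, 9 of 10 had a start with a match, also members that did not rise. ACGTG was found at 3 of the 16 starts (1 each of KDM2B, KDM4B and KDM4C), against 21.4% of all promoters. A match is a description of letters, not of binding. The 250 bases before the start are shown for the 4 genes that rose most in WT and for KDM3B, which has no match and did not rise. Letters run 5′ to 3′ on the gene's strand, and capitals mark either form of the core on either strand.
KDM3A, chr2:86441121-86441370 (plus strand): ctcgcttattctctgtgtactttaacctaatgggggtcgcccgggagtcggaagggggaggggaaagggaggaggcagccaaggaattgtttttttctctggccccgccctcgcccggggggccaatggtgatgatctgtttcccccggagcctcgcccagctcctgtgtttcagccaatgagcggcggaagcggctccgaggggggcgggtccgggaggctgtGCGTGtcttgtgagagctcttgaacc
KDM6B, chr17:7833967-7834216 (plus strand): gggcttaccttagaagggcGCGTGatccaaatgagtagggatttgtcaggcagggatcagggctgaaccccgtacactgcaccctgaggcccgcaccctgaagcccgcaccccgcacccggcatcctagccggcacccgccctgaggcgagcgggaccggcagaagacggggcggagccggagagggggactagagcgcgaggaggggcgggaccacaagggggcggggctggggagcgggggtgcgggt
KDM5B, chr1:202808422-202808671 (minus strand): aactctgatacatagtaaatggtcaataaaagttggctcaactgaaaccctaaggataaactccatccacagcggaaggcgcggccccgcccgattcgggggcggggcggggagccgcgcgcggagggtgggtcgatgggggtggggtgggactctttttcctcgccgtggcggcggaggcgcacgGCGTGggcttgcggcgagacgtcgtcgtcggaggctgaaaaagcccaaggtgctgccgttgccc
KDM4C, chr9:6757723-6757972 (plus strand): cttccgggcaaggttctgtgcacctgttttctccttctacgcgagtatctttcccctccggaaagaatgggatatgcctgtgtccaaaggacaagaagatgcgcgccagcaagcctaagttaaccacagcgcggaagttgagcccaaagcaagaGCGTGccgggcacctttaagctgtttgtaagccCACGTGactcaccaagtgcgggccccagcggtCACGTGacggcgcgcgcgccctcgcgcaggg
KDM3B, chr5:138352435-138352684 (plus strand): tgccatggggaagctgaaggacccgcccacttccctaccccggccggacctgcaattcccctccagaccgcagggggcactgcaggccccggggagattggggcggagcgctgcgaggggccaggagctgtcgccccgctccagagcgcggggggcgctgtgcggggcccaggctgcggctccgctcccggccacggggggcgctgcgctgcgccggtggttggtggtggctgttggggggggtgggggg
KDM3A has 2 listed starts, of which the first is shown. Its 1 match, GCGTG, lies at -26 to -22 from that start and at -116 to -112 from the second. KDM6B has 1, at -231 to -227 of the start shown, which lies outside the gene as the count tables delimit it. The KDM6B start inside the counted gene has no match in its window. KDM4C has 5, among them CACGTG at -63 to -58 and again at -31 to -26, where ACGTG lies on both strands and overlaps itself.

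Knockout and WT cells were then compared at each oxygen level. In normoxia, MIR210-KO had 1 member higher and 6 lower than WT, beside 44.2% of all genes called, and MIR210HG-KO had 3 higher and 3 lower, beside 35.2%. In hypoxia MIR210-KO had 1 higher and 5 lower, beside 55.9%, and MIR210HG-KO had 4 higher and 2 lower, beside 54.6%. Member medians were -0.17 and -0.080 for MIR210-KO and 0.12 and 0.087 for MIR210HG-KO, against -0.034 to 0.019 for all genes. MIR210HG-KO against MIR210-KO had 5 higher and 1 lower in normoxia, beside 49.2%, and 8 higher and 1 lower in hypoxia, beside 55.1%. The comparisons share the WT or knockout libraries and are given side by side, not as support for each other.

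KDM6B was lower than WT in both knockouts. In normoxia it was 1.43-fold lower in MIR210-KO (log2 -0.51 ± 0.083, adjusted p = 5.20e-06, edgeR) and 1.55-fold lower in MIR210HG-KO (log2 -0.63 ± 0.083, adjusted p = 2.90e-07, edgeR). In hypoxia the gap was wider, 2.47-fold in MIR210-KO (log2 -1.31 ± 0.081, adjusted p = 4.99e-15, edgeR) and 2.05-fold in MIR210HG-KO (log2 -1.03 ± 0.080, adjusted p = 1.86e-12, edgeR). No knockout library overlapped a WT library at either oxygen level. In hypoxia MIR210-KO the value lies at percentile 2.72 of all genes. The 180 tested genes within 5 Mb of KDM6B had medians of 0.062 in MIR210-KO and -0.23 in MIR210HG-KO in hypoxia, and KDM6B lay below both.

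KDM4C was lower in MIR210HG-KO together with its surroundings. Its 18.7, 20.9, 19.2 and 24.3 CPM in normoxia and 25.7, 26.9, 25.6 and 24.2 CPM in hypoxia all lay below the WT libraries of the same oxygen level. The difference was -0.42 ± 0.073, adjusted p = 2.52e-05 in normoxia and -0.62 ± 0.069, adjusted p = 4.61e-09 in hypoxia by edgeR. Of 37 tested genes within 5 Mb on chromosome 9, 28 were lower in normoxia and none higher, with a median of -0.72, and 28 were lower and 1 higher in hypoxia, with a median of -0.68. All 808 tested genes of the chromosome had medians of -0.16 and -0.17. In MIR210-KO, KDM4C was 0.23 ± 0.071 higher in normoxia (edgeR adjusted p = 0.00925, but 0.18 and 0.0573 without normoxia WT 1), beside a neighbour median of 0.24, and differed by 0.15 ± 0.067 in hypoxia, not called (adjusted p = 0.0531), beside a neighbour median of 0.23. The part of this region in the KDM4C difference was not tested.

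KDM2A went in opposite directions in the 2 knockouts. MIR210-KO libraries had 98.2, 97.4, 89.9 and 97.1 CPM in normoxia and 84.6, 81.7, 88.6 and 86.2 CPM in hypoxia, all below WT, a difference of -0.41 ± 0.062, adjusted p = 1.89e-06 and -0.34 ± 0.062, adjusted p = 2.56e-05 by edgeR. Of 241 tested genes within 5 Mb on chromosome 11, 167 were lower and 6 higher in normoxia and 156 lower and 15 higher in hypoxia, with medians of -0.55 and -0.54. The 1043 tested genes of the whole chromosome had medians of -0.50 and -0.48, lower than the value of KDM2A. The part of the chromosome in its difference was not tested.

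In MIR210HG-KO, KDM2A had 177, 165, 149.6 and 159.9 CPM in normoxia and 164, 169, 175 and 167 CPM in hypoxia, all above WT. It was higher by 0.36 ± 0.062, adjusted p = 2.30e-05 in normoxia and by 0.65 ± 0.062, adjusted p = 1.73e-10 in hypoxia by edgeR. Here its neighbours had medians of 0.0022 and -0.041. Between the knockouts KDM2A differed by 0.77 ± 0.062 in normoxia and 0.98 ± 0.062 in hypoxia, 1.98-fold. In that comparison the 241 tested genes within 5 Mb had medians of 0.56 and 0.57, and the 1043 of the chromosome 0.50 and 0.48. The part of the chromosome in this difference was not tested.

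**Figure D5:**
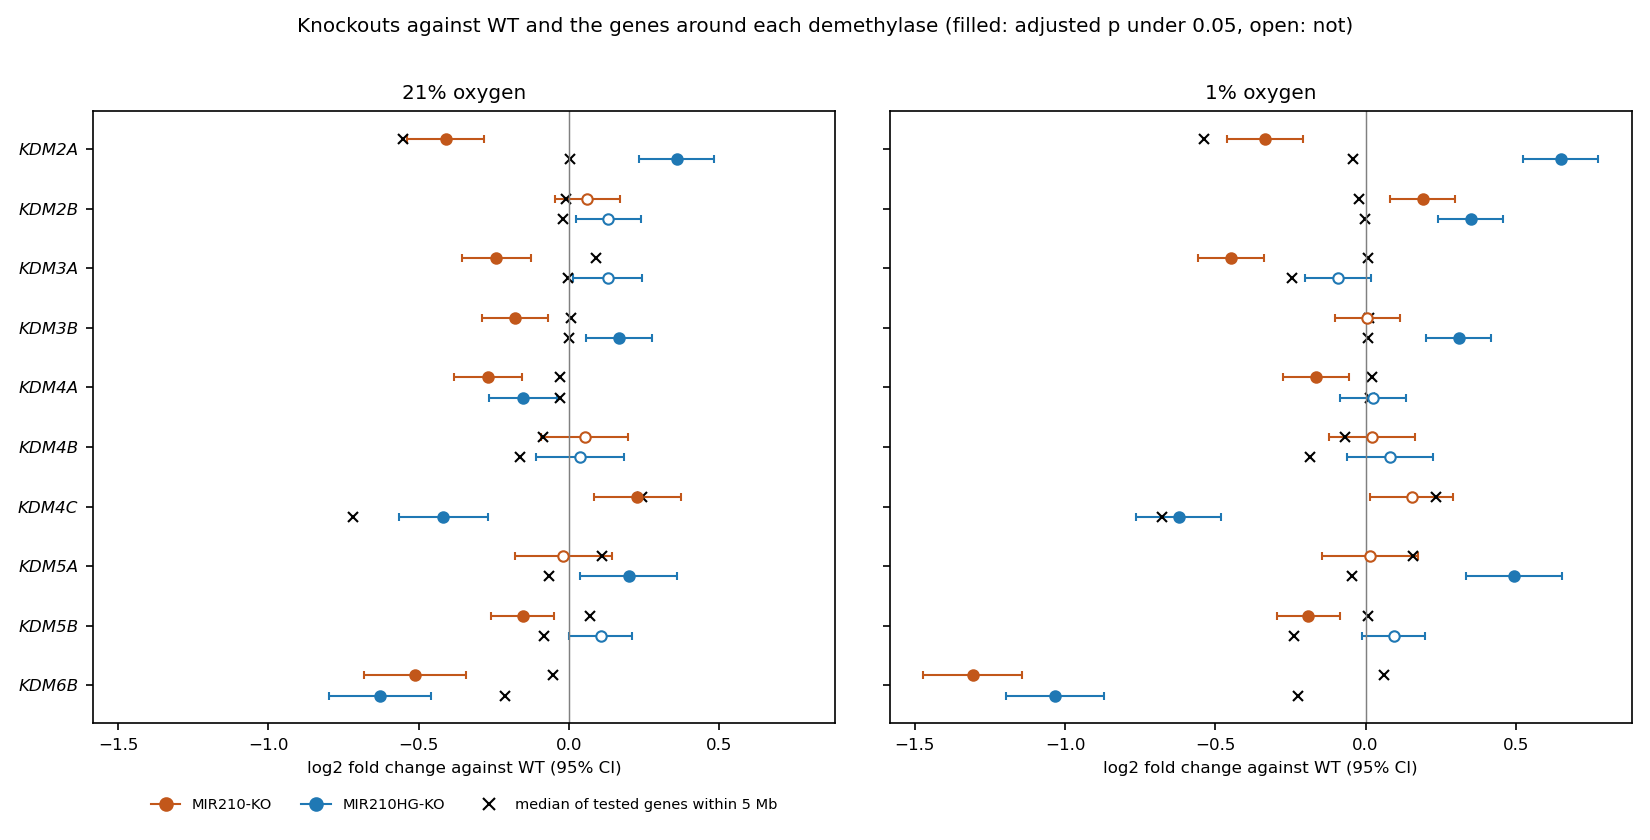
Log2 fold change of each knockout against WT (horizontal axis, with 95% confidence intervals) at 21% and 1% oxygen, with crosses for the median of all tested genes within 5 Mb of each gene. KDM4C in MIR210HG-KO and KDM2A in MIR210-KO lie near or to the right of their crosses, whereas KDM6B lies far to the left of its crosses in both knockouts.

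KDM3A was lower than WT in MIR210-KO at both oxygen levels (log2 -0.24 ± 0.056, adjusted p = 6.77e-04 in normoxia and -0.45 ± 0.054, adjusted p = 1.55e-08 in hypoxia, edgeR). In MIR210HG-KO it differed by 0.13 ± 0.056 and -0.091 ± 0.053, neither called. KDM5B was lower in MIR210-KO (log2 -0.15 ± 0.052 in normoxia and -0.19 ± 0.051 in hypoxia), the first not called without normoxia MIR210-KO 3 (-0.12, adjusted p = 0.0781 by edgeR). In MIR210HG-KO it differed by 0.11 ± 0.052 and 0.093 ± 0.051, not called. KDM3B was lower in MIR210-KO in normoxia (log2 -0.18 ± 0.053), was higher in MIR210HG-KO by 0.17 ± 0.053 and 0.31 ± 0.053, and in hypoxia MIR210-KO differed by 0.0049 ± 0.053, with an interval of -0.10 to 0.11.

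KDM5A was higher in MIR210HG-KO, by 0.20 ± 0.079, adjusted p = 0.0495 in normoxia and 0.49 ± 0.078, adjusted p = 2.78e-06 in hypoxia by edgeR. The normoxia call was lost under 12 of 21 alternatives, among them the removal of any 1 of the 8 libraries (0.16 to 0.22). Over all 21 alternatives its adjusted p, each by that alternative's test, ran from 1.16e-04 to 0.975. The hypoxia call was kept under all 21. In MIR210-KO it did not pass, at -0.019 ± 0.079 and 0.016 ± 0.078. In hypoxia the latter sign turned to -0.13, called as lower, both with the balance covariate and without the 4 libraries that stood apart. KDM2B was higher in hypoxia in both knockouts, by 0.19 ± 0.053 and 0.35 ± 0.053, and not called in normoxia, at 0.060 ± 0.053 and 0.13 ± 0.053. KDM4A, whose exons overlap other genes, was lower in MIR210-KO (log2 -0.27 ± 0.055 in normoxia and -0.16 ± 0.054 in hypoxia) and in normoxia MIR210HG-KO (log2 -0.15 ± 0.055). The last call was lost under 11 of 21 alternatives, among them the removal of normoxia WT 1, 3 or 4 or of normoxia MIR210HG-KO 1 or 2 (-0.16 to -0.13). KDM4B was not called in any genotype comparison, with values between -0.015 and 0.081. Without normoxia MIR210HG-KO 3, MIR210HG-KO minus WT in normoxia became 0.14 and was called (adjusted p = 0.0452 by edgeR).

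The microRNA deleted in MIR210-KO cells acts mainly through its seed, which pairs with sites in 3′ UTRs. The mature strand, from RefSeq (GRCh38.p14, chr11:568112-568133, minus strand), is shown with the seed, bases 2 to 8, in capitals.
hsa-miR-210-3p: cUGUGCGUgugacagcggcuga
A site was counted where a 3′ UTR pairs with bases 2 to 7 and either pairs with base 8 or has an A opposite base 1, in 1 transcript per gene of GENCODE release 29. None of the 10 members had a site, in UTRs of 511 to 5327 bases, against 624 of 19126 genes (3.26%).

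The protein-coding genes most like each member were found by Pearson's r of log2 CPM over the 24 libraries, among 11118 genes with a mean of at least 5 CPM. The libraries fall into 6 groups, so r mostly follows group means and is a description. For KDM3A these were WSB1 (0.993), BNIP3L (0.988) and ZBTB25 (0.987). BNIP3L, a mitophagy receptor, and WSB1 are known to be induced by hypoxia. For KDM6B they were ATF3 (0.983), HK2 (0.965) and MAFF (0.965), of which ATF3 is a stress-induced transcription factor and HK2 a glycolytic enzyme. KDM5B was most like FOXO3 (0.978), EGLN1 (0.975) and AGO4 (0.974), and EGLN1 is the oxygen sensor that marks HIF for degradation. For KDM4C they were ARHGEF6 (0.966), TMOD2 (0.962) and PAPSS2 (0.959). KDM2A was most like PCNT (0.982), CUL9 (0.979) and FNBP1 (0.971), and KDM2B most like TNRC18 (0.975), CELSR1 (0.969) and EMILIN3 (0.963). KDM3B was most like KIF13A (0.960), ATP9A (0.960) and DIP2A (0.956), and KDM5A most like RC3H2 (0.959), ERCC6 (0.950) and IQGAP1 (0.933). KDM4A was most like B4GALT6 (0.841), ZNF740 (0.837) and STK4 (0.835), and KDM4B most like ZNF536 (0.827), SCNN1D (0.824) and MAMDC4 (0.808).

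Genes around the members' function were counted in lists, each beside the all-gene values for hypoxia WT, a median of 0.0020 with 29.6% of genes called higher and 30.7% lower. Among 14 other JmjC proteins, 13 were tested, and in hypoxia WT 4 were higher and 5 lower, with a median of -0.077. KDM7A, a demethylase of lysines 9 and 27, rose by 1.06 ± 0.088, and KDM8 fell by 1.04 ± 0.096 on the log2 scale. Like KDM6B, KDM7A was lower than WT in both knockouts in hypoxia (log2 -1.58 ± 0.089 in MIR210-KO and -1.58 ± 0.089 in MIR210HG-KO). Both flavin-dependent demethylases, which also consume oxygen but by another chemistry, were lower in hypoxia WT (log2 -0.22 ± 0.050 for KDM1A and -0.27 ± 0.057 for KDM1B). Of the 3 TET enzymes, the JmjC proteins' relatives that oxidise 5-methylcytosine, 2 rose in WT: TET1 by 0.78 ± 0.10 and TET2 by 0.37 ± 0.097.

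Genes listed as methyltransferases of the same lysines were counted likewise. Of 7 lysine 4 methyltransferases, 2 were higher and 4 lower in hypoxia WT, with a median of -0.45; SETD1B changed by -1.18 ± 0.092 and KMT2D by -1.01 ± 0.13. Of 6 lysine 9 methyltransferases, 1 was higher and 4 lower, with a median of -0.45, led by SUV39H1 at -0.81 ± 0.083 and EHMT2 at -0.78 ± 0.064. The lysine 27 methyltransferase complex was split, 2 higher and 2 lower of 6. Its catalytic subunits EZH2 and EZH1 rose by 0.57 ± 0.056 and 0.44 ± 0.053 in WT. In MIR210HG-KO, EZH2 differed by -0.0093 ± 0.057, not called. Of 6 genes listed as lysine 36 methyltransferases, 2 were higher and 1 lower: NSD3 at 0.63 ± 0.074, SETD3 at 0.17 ± 0.054 and NSD1 at -0.25 ± 0.086. Whether SETD3 acts on lysine 36 was not examined here. Of 9 partners of KDM2B in its Polycomb complex, 4 were higher and 5 lower, with RYBP at 0.91 ± 0.062 and YAF2 at 0.75 ± 0.091 while KDM2B fell. No test was made of any list as a whole.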

How the data were processed

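Poly(A) selection or depletion is not given in the sources used here; libraries were made from total RNA with the NEBNext Ultra kit, per the labels' protocols. The authors deposited raw read counts per gene, 1 table for each oxygen level, with gene lengths. STAR 2.6.1d, featureCounts 1.5.0-p3, DESeq2 1.20.0, edgeR 3.24.3 and the build GRCh38 are named in the submitters' processing notes, without their roles. Neither the annotation release nor the use of strand in counting is given in the sources used here. Reads from a gene and an overlapping antisense gene may therefore be mixed. GENCODE release 29 has the tables' coordinates for 10 of 10 members and was used for exon overlaps and 3′ UTRs.

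The deposited counts of 24 libraries, 25556776 to 37858947 each, were fitted together with 1 mean per group, which left 18 residual degrees of freedom (R 4.3.3, edgeR 4.0.16, filterByExpr, TMM factors, quasi-likelihood F test). P-values were adjusted by Benjamini-Hochberg over 19952 genes, and genes with an adjusted p under 0.05 were called. Intervals are at 95%. CPM and TPM were computed from the deposited counts. Alternatives used DESeq2 1.42.0, limma 3.58.1, other scaling factors and filters, and left out libraries. Library totals alone were added after seeing the scaling factors. The fit was tested on simulated data.

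The members, the gene lists and the naming rule were chosen with earlier results of these data known. Named are the 10 members, the 2 called genes of each list with the largest change in a comparison described, the 3 most alike genes of each member, and MIR210HG. EZH2 in MIR210HG-KO, KDM7A in the knockouts and SETD3 were named after their values were seen. Of the 24 libraries none was left out of the tests. Promoter and miRNA sequences are RefSeq's (GRCh38.p14). Protein sequences were not used here.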

Additional observations from a re-analysis of the deposited data

Results flagged for a closer look

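In 5 of 60 sets of 4 libraries (10 genes in 6 groups) 1 library lay far from the other 3, where chance gives about 1 in 20. All 5 values came from library 3 of a normoxic knockout group. In normoxia MIR210-KO 3, KDM2A had 89.9 CPM and KDM5B had 109.8 CPM, each the lowest of its group. In normoxia MIR210HG-KO 3, KDM3B had 178 CPM and KDM6B had 35.8 CPM, the lowest of their groups, and KDM3A had 74.1 CPM, the highest.

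The response to oxygen differed from that of WT by the interaction test (edgeR, adjusted over all genes) for 4 members. In MIR210-KO it was smaller for KDM6B by a log2 difference of -0.80 and for KDM3A by -0.21. In MIR210HG-KO it was smaller for KDM6B (-0.40) and KDM3A (-0.22), and it was higher for KDM2A (0.29) and KDM2B (0.22).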

How the results depend on the processing

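Single members gave 2760 values under 13 other settings and with each of 24 libraries left out. Of these, 2525 kept their side of the threshold, 133 lost the call, 95 gained one and 7 reversed. A reversal was counted only where the main fit or the alternative called the value. Values called by neither may have changed sign and count among the 2525. Reversed were, in hypoxia minus normoxia, KDM2B in MIR210HG-KO (0.0077 with upper quartile factors, 0.060 with library totals alone), KDM3B there (0.13 and 0.19) and KDM2A in MIR210-KO (0.026 with library totals alone). KDM5A in MIR210-KO minus WT in hypoxia was -0.13 both with the balance of long and short genes as a covariate and without 4 libraries. The cause was not tested. Demanding a fold of at least 1.2 lowered the members called for oxygen from 8 to 5 in WT and from 7 to 3 in MIR210HG-KO. In normoxia it lowered MIR210-KO minus WT from 7 to 2, MIR210HG-KO minus WT from 6 to 2 and MIR210HG-KO minus MIR210-KO from 6 to 3. In hypoxia it lowered MIR210-KO minus WT from 6 to 2 and MIR210HG-KO minus MIR210-KO from 9 to 4, and the interactions from 2 to 1 and from 4 to 0. All genes called fell as well, for oxygen from 12022 to 8204 in WT and from 10788 to 6488 in MIR210HG-KO. In normoxia they fell from 8816 to 4741 (MIR210-KO minus WT), 7019 to 2990 (MIR210HG-KO minus WT) and 9814 to 5876 (between knockouts). In hypoxia they fell from 11150 to 6944 (MIR210-KO minus WT) and 10988 to 6819 (between knockouts). For the interactions they fell from 5287 to 2090 (MIR210-KO) and 4486 to 1391 (MIR210HG-KO). The MIR210-KO interaction count went from 2 to 1 with no filter, beside 5287 and 4911 of all genes. That of MIR210HG-KO went from 4 to 2 with only the groups compared, beside 4486 and 3882. The interaction between the knockouts went from 0 to 1 with RLE factors, no filter, DESeq2 or the balance covariate, and to 2 without 4 libraries. All genes called there went from 707 to 720, 724, 1021, 1397 and 2157 under these settings, in that order, so the gains are not read as particular to the members. With 1 library left out, counts for oxygen ran from 7 to 8 in WT, stayed at 6 in MIR210-KO and ran from 6 to 7 in MIR210HG-KO. In normoxia they ran from 6 to 7 (MIR210-KO minus WT), 4 to 8 (MIR210HG-KO minus WT) and 5 to 7 (between knockouts). In hypoxia they ran from 6 to 7, 6 to 7 and 9 to 9. The interaction counts ran from 1 to 2 (MIR210-KO), 2 to 5 (MIR210HG-KO) and 0 to 1 (between knockouts).

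Same-numbered libraries did not deviate together (highest correlation 0.0959). The labels do not say whether the numbers pair the libraries, and a low correlation cannot decide it. With the replicate number as a block, 8, 6 and 7 members were called for oxygen in WT, MIR210-KO and MIR210HG-KO. Of all 19952 genes, 11995, 11659 and 10758 were called there. For the interactions 2, 5 and 0 members were called, beside 5268, 4501 and 653 of all genes.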
